A study of Homo sapiens with 6 samples.

Results

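The HOX genes encode homeodomain transcription factors and lie in gene clusters named A, B, C and D. The genes considered here are the 39 protein-coding genes of GENCODE 29 whose symbol is HOXA, HOXB, HOXC or HOXD followed by a number, out of 58381 gene IDs in the deposited table. All 39 were found by Ensembl ID. Each was asked whether it was on, and whether its level differed between sorted fractions of MCF10AT1 cells. MCF10AT1 is a human breast epithelial line derived from a xenograft lesion of HRAS-transformed MCF10A cells. It was grown with horse serum, insulin, EGF, cholera toxin and hydrocortisone, and sorted with antibodies against the surface proteins CD24 and CD44. One group was CD24low and CD44high (3 libraries, called CSC in the column descriptions). The other was CD24high and CD44-positive (3 libraries, called Bulk there). Both groups come from this 1 line, and no label says that the replicates were separate cultures, and the p-values therefore refer to the variation among these 6 libraries, part or all of which may be technical.

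Total RNA was depleted of ribosomal RNA and sequenced to 16691162 to 27293177 recovered reads per library. The share of reads at rRNA genes was below 5% in CD24high replicates 1 and 2 and CD24low replicate 3 and above it in the other libraries, so differences within libraries of similar share are also given beside a number of results. Within each such set 1 side is a single library, and no test was made. The first principal component put CD24low replicate 2 at 55, CD24low replicates 1 and 3 at 22.9 and 3.83, and the CD24high libraries at -34.2 to -15.9. The sorting marker CD24 had 4043, 2325 and 5687 normalized counts in CD24high and 588, 329 and 1370 in CD24low libraries (log2 difference, CD24low minus CD24high, of -2.55, SE 0.46, limma adjusted p = 0.084, DESeq2 adjusted p = 0.027), and CD44 differed by -0.17 (SE 0.12, limma adjusted p = 0.56). All 10 mammary epithelial markers examined were expressed, and 7 of them had CD24low libraries entirely below CD24high ones, as did 9.32% of all tested genes. Those with the smallest p were TP63, a basal transcription factor (-1.29, SE 0.20, limma adjusted p = 0.068, DESeq2 adjusted p = 7.0e-06), and CDH1, which encodes E-cadherin (-0.90, SE 0.23, limma adjusted p = 0.17, DESeq2 adjusted p = 0.013). DESeq2 called 3 of the 10 lower in CD24low cells, against calls in either direction for 2.51% of all tested genes. The summed level of 8 fibroblast markers was 52.6 to 359 normalized counts in CD24high and 887 to 3839 in CD24low libraries. In CD24low libraries most of it came from DCN, which encodes the proteoglycan decorin, at 985, 3704 and 846 (difference 4.16, SE 1.05, limma adjusted p = 0.16). COL1A1 differed by 1.01 (SE 0.47, limma adjusted p = 0.38). LUM was at 0 in all 6 libraries and COL1A2 had at most 0.83 normalized counts. The part of these markers in the HOX values was not tested.

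HOX proteins give cells their position along the body axis, and their genes are read in the order in which they lie. Genes of paralog group 1 sit at the end of a cluster that acts towards the head and group 13 at the end that acts towards the tail. Adult epithelia keep part of this code. Their proteins bind DNA with cofactors of the TALE class (PBX, MEIS and PKNOX), retinoic acid opens the clusters in the embryo, and Polycomb and Trithorax complexes hold them silent or active.

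Promoter windows are shown for a pair of expressed and a pair of silent HOX genes, so that the sequences of both classes can be compared. A gene was called on in a fraction when each of its 3 libraries had at least 10 normalized counts. RefSeq promoters (GRCh38.p14) were held for 20 of the 39 genes, as 27 windows, 26 of them distinct. The 250 bases before the start are given 5′ to 3′ on the gene's strand, with CpG dinucleotides in capitals. HOXA9 (chr7:27165538-27165787, minus strand) and HOXC4 (chr12:54016638-54016887, plus strand) were on in both fractions. HOXA11 (chr7:27185233-27185482, minus strand) and HOXD8 (chr2:176129455-176129704, plus strand) had no reads.
HOXA9: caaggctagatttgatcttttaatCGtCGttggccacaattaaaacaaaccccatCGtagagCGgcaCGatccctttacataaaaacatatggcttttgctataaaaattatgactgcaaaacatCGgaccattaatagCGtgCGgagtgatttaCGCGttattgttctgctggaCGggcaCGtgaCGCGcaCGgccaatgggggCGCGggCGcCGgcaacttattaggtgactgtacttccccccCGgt
HOXC4: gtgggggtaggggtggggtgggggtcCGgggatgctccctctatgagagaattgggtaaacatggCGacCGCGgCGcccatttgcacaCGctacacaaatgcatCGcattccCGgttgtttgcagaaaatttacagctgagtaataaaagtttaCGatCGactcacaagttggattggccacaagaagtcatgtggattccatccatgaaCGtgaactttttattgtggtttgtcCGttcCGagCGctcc
HOXA11: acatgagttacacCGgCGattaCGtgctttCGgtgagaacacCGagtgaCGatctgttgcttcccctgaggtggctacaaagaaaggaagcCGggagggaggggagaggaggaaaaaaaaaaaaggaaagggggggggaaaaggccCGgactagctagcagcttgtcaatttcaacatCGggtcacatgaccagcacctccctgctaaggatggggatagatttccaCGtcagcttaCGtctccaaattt
HOXD8: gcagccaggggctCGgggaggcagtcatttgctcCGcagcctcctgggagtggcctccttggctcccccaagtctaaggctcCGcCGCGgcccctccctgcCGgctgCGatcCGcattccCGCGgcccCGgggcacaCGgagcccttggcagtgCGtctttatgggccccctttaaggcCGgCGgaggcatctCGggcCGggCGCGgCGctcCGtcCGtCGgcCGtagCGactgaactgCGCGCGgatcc

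The HOXA9 window held 20 CpGs, the HOXC4 window 14, the HOXA11 window 11 and the HOXD8 window 28. In the 13 distinct windows of 7 genes that were on in both fractions the number ran from 0 to 28, with a median of 14. In the 10 windows of genes without reads it ran from 4 to 31, with a median of 21, and over all 35116 windows the median was 11. The ranges of expressed and silent HOX genes overlapped. Many windows of the expressed class are alternative starts of HOXA3 (0 to 26 CpGs), and most windows without reads are of HOXD genes. The 2 medians therefore rest largely on HOXA3 and on the HOXD cluster. The window of HOXC5 was the same as that of HOXC4. It lies upstream of the HOXC5 annotation counted here, which starts at 54032853. A second HOXC5 annotation starts nearer to the window, at 54017110. The series title names RUNX factors, so the motif TGTGGT was searched on both strands. It lay in 2 of 26 distinct HOX windows and in 11% of all windows. One was the shared window of HOXC4 and HOXC5 (chr12:54016852-54016877), the other that of HOXD10 (chr2:176116725-176116750), a gene with no reads. Both sites are shown with the motif in capitals. A match is a description of the letters only.
HOXC4 and HOXC5: aactttttatTGTGGTttgtccgttc
HOXD10: ttggttgtcaTGTGGTcggcagaggc

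Of the 39 HOX genes, 17 (43.6%) were on in both fractions, and 1 more, HOXA4, was on in CD24low cells alone by this threshold. Another 6 had reads below the threshold, and 15 (38.5%) had no read in any library. Among all 19881 protein-coding genes of the table, 60.8% had at least 10 normalized counts in all 6 libraries and 19.9% had no reads. Where no read was seen, counting error alone allows a level of up to 2.49 normalized counts in the deepest library and 4.38 in the shallowest. No HOX gene was on in CD24high cells and below the threshold in CD24low cells. In sorted bulk samples fewer cells with a transcript and less RNA per cell cannot be told apart.

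**Figure D1:**
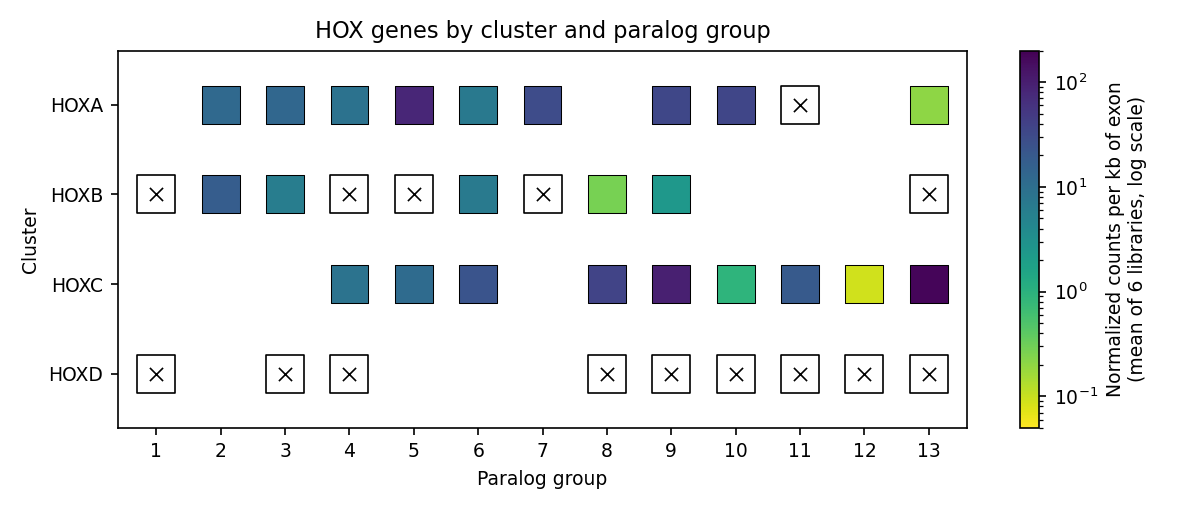
HOX genes placed by cluster (vertical axis) and paralog group (horizontal axis), coloured by mean normalized counts per kilobase of exon over the 6 libraries on a log scale. Crossed white squares are genes with 0 reads in all libraries, gaps are positions without a gene or not shown, and the HOXD row holds 9 crossed squares of 9.

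The HOXA cluster (chromosome 7, hg38) had reads from HOXA2 to HOXA10 and was silent or nearly so beyond. Of its 11 genes, 7 were on in both fractions. HOXA11, a regulator of forelimb and uterus development, had no reads. HOXA13, which patterns digits and the urogenital tract, had 6 reads over all libraries. HOXA6 lay below the threshold with 1.96 to 16.2 normalized counts, and 39.3% of its exon bases lie opposite the antisense RNA HOXA-AS3.

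In the HOXC cluster (chromosome 12, 53938765 to 54056030) 7 of 9 genes were on in both fractions and each had at least 1 read. A pair of positions broke the row. HOXC10, a group 10 gene of the lumbar spine, had 12 reads over all libraries, and HOXC12, which lies next to HOXC13, had 2 reads. Their neighbours HOXC9, HOXC11 and HOXC13 had 988, 384 and 2606 reads.

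Only 3 of 10 HOXB genes (chromosome 17, 48528526 to 48729178) were on in both fractions: HOXB2, HOXB3 and HOXB6. HOXB2 and HOXB3 are hindbrain genes. HOXB9 had 3.95 to 8.82 normalized counts and HOXB8 had 3 reads in all. HOXB1, HOXB4, HOXB5, HOXB7 and HOXB13, the prostate gene of the cluster, had none. Of the exon bases of HOXB6, 16.6% are shared with HOXB3 on the same strand and 16.3% lie opposite HOXB-AS3, so its count is uncertain. All 9 HOXD genes (chromosome 2, 176092891 to 176190907) had 0 reads in all 6 libraries, among them HOXD10 and the digit gene HOXD13. HOXD4 and HOXD3 share 80.5% and 62.2% of their exon bases on the same strand with the annotation AC009336.2, which also had no reads. For HOXD1, 58.1% lie opposite other annotations, so these zeros are less certain. HOXD8, HOXD9, HOXD12 and HOXD13 share no exon bases with any gene.

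Levels between genes were compared per kilobase of merged exon, as normalized counts per kilobase over the 6 libraries. HOXC13, a regulator of hair and nail keratins, was highest at 180 (121 to 250), above 69.0% of the 16047 tested genes. HOXC9 followed at 96.5 (77.1 to 114) and HOXA5 at 82.8 (53.1 to 134). The lowest library of HOXC13 lay above every library of HOXC9, while HOXC9 and HOXA5 overlapped. A next set with overlapping ranges held HOXC8 at 37.8 (31.9 to 47.6), HOXA10 at 35.4, HOXA9 at 34.2 and HOXA7 at 29.9 (20.3 to 44.0).

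Below these came HOXC6 at 23.4, HOXC11 at 19.6 and HOXB2 at 17.6 normalized counts per kilobase. HOXA3, HOXA2 and HOXC5 lay between 13.1 and 11.3, and HOXA4 and HOXC4 at 8.73 and 8.51. HOXB6 (6.79) and HOXB3 (6.13) were the lowest genes that were on. HOXA6, which was not called on, lay above both at 6.91, as the threshold for on takes no account of exon length. The median of the 18 tested HOX genes was 18.6 per kilobase against 86.8 over all tested genes, so most of the HOX genes were low transcripts. Shared exons can move these levels: HOXC5 shares 59.9% of its exon bases on the same strand with other annotations, and HOXA5, HOXC8 and HOXC11 share none with any gene.

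The comparison of fractions asks whether the HOX code of CD24low cells departs from that of CD24high cells. No HOX gene passed limma's adjusted p of 0.05, and the same set of genes carried the code in both fractions apart from HOXA4 at the threshold. The 18 HOX genes whose mean reached 10 normalized counts were tested, and 0 were called by limma, DESeq2 or edgeR's quasi-likelihood test. Over all genes limma called 0.0% and DESeq2 2.51%. A limma fit blocked on replicate number called 4.46% of all genes and again 0 HOX genes. At an unadjusted limma p below 0.05 there were 3 HOX genes (16.7%, against 13.5% of all tested genes), HOXA5, HOXC5 and HOXC6. All 3 were higher in CD24low cells, as were 6.34% of all tested genes at that p. These were also the 3 whose fractions did not overlap (16.7% against 19.5%), so both shares are near the background. Over all tested genes CD24low libraries lay wholly above in 10.2% and wholly below in 9.32%, against 3 and 0 of the 18 HOX genes. Each difference is the CD24low mean minus the CD24high mean of log2 (normalized count + 1), a scale that understates the change of low genes. They were positive for 12 and negative for 6 HOX genes, with a median of 0.25 against -0.0066 over all tested genes, where 49% were positive.

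**Figure D2:**
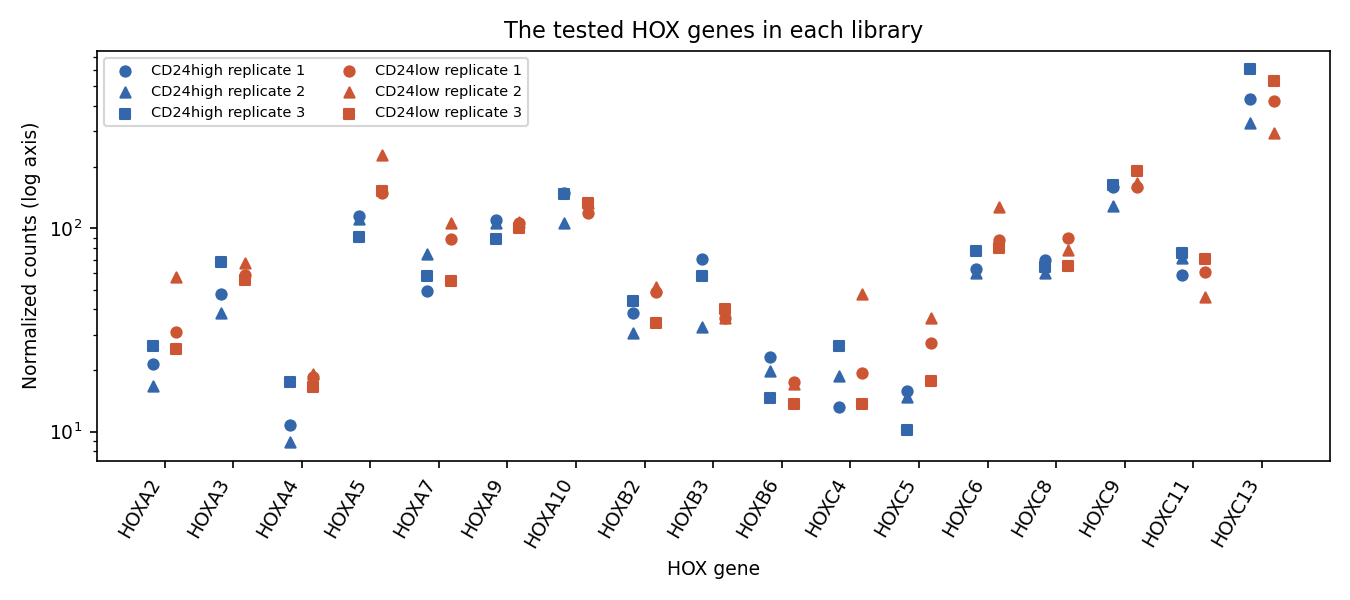
Normalized counts (log axis) of 17 of the 18 tested HOX genes in each library, CD24high in blue and CD24low in red, with 1 symbol per replicate number. HOXA5, HOXC5 and HOXC6 show no overlap between fractions, and CD24low replicate 2 is the highest library for 8 genes.

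HOXA5 (ENSG00000106004.4, chromosome 7, 27141052 to 27143668, minus strand) has been described as a regulator of E-cadherin and CD24 in breast cells. Its normalized counts, in the order of replicates 1 to 3 as throughout, were 115, 111 and 90.6 in the CD24high fraction and 149, 229 and 153 in the CD24low fraction. Each CD24low library lay above each CD24high library, and CD24low replicate 2 stood highest. The means were 106 ± 13.1 and 177 ± 45.3 (SD, n = 3), and the log2 difference was 0.72 (SE 0.21). The adjusted p was 0.20 with limma and 0.086 with DESeq2. It differed by 0.43 among the libraries with little rRNA and by 1.02 among the others.

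HOXC4, HOXC5 and HOXC6 share exons or a start at the 3′ end of the HOXC cluster. HOXC6 (ENSG00000197757.7, chromosome 12, 53990624 to 54030823), a gene of the thoracic region, had 63.1, 60.3 and 77.4 normalized counts in CD24high and 88.1, 127 and 80.3 in CD24low libraries. Its fractions did not overlap, with a gap of few counts between CD24high replicate 3 and CD24low replicate 3. The difference was 0.53 (SE 0.23, limma adjusted p = 0.36).

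HOXC5 (ENSG00000172789.3, 54032853 to 54035358) had 15.8, 14.8 and 10.2 normalized counts in CD24high and 27.3, 36.3 and 17.6 in CD24low libraries. No library of the CD24low fraction fell to the CD24high range. The difference of 0.91 (SE 0.36, limma adjusted p = 0.31) was 0.19 among the libraries with little rRNA and 1.53 among the others. A second annotation of the same name, a processed transcript, had 20.7 to 27.8 and 23.5 to 53.5 normalized counts, which overlapped. HOXC4 (ENSG00000198353.7) had 13.3, 18.8 and 26.3 in CD24high and 19.4, 47.8 and 13.7 in CD24low libraries, so its positive difference of 0.31 (SE 0.46) rested on CD24low replicate 2, without which it was -0.19.

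HOXA2, HOXA3 and HOXA4 also had positive differences in the main comparison, with no call. HOXA2 (ENSG00000105996.6), the gene of the second pharyngeal arch, had 21.6, 16.8 and 26.3 normalized counts in CD24high and 30.8, 57.3 and 25.5 in CD24low libraries. CD24low replicate 3 fell just under CD24high replicate 3, so the fractions overlapped, and the difference was 0.72 (SE 0.35), or 0.39 without CD24low replicate 2. HOXA3, a gene of thymus and parathyroid formation, differed by 0.27 (SE 0.26) in the main comparison and by -0.12 within libraries of high rRNA share. HOXA4 had 10.8, 8.89 and 17.5 normalized counts in CD24high and 18.5, 19.1 and 16.7 in CD24low libraries, so the change of class came from CD24high replicate 2 alone.

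HOXB2 differed by 0.24 (SE 0.26), HOXB3 by -0.44 (SE 0.30) and HOXB6 by -0.22 (SE 0.32). For HOXB6 the value was -0.61 among libraries with little rRNA and 0.24 among the others. HOXB3 had 70.5, 32.6 and 58.4 normalized counts in CD24high libraries against 36.1, 36.3 and 40.2 in CD24low libraries. Its CD24high replicate 2 lay below every CD24low library, and without it the difference was -0.76. HOXA7, known as a brake on keratinocyte differentiation, had 60.8 ± 13.2 and 83.3 ± 26.1 normalized counts (0.42, SE 0.28), and HOXC8 64.8 ± 4.74 and 78.0 ± 12.1 (0.25, SE 0.20). HOXA7 differed by -0.14 within libraries of low rRNA share. Of its exon bases, 62.5% lie opposite HOXA-AS3.

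Among genes of groups 9 to 13, HOXA9, a leukaemia gene that also acts in breast epithelium, had 110, 107 and 89.1 normalized counts in CD24high and 107, 108 and 101 in CD24low libraries, a difference of 0.05 (SE 0.18). HOXA10, a gene of the uterine lining, had 134 ± 24.5 and 129 ± 8.36 (-0.04, SE 0.19). HOXC9 differed by 0.20 (SE 0.17) and HOXC11 by -0.23 (SE 0.23). Among libraries with little rRNA and among the others HOXC11 differed by 0.12 and -0.52. In each of these genes the fractions overlapped.

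HOXC13 (ENSG00000123364.4, chromosome 12, 53938765 to 53946544, plus strand) had 436, 331 and 606 normalized counts in the CD24high fraction and 424, 294 and 531 in the CD24low fraction. In both fractions replicate 3 was highest and replicate 2 lowest, and the fractions overlapped. Each CD24low library lay below the CD24high library of the same number. The difference was -0.13 (SE 0.25, limma adjusted p = 0.85), with 0.48 among the libraries with little rRNA and -0.78 among the others. In the limma fit blocked on replicate number the SE was 0.14 (limma adjusted p = 0.69). The 2.06-fold range of HOXC13 between libraries thus lay mostly within fractions.

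Set out by position, 10 of 13 tested genes of groups 1 to 8 had a positive difference, with a median of 0.31. Of 5 tested genes of groups 9 to 13, 2 were positive, with a median of -0.04 and a range from -0.23 to 0.20. The division was not tested. CD24low replicate 2 was the highest library for 8 of the 13 genes and for 0 of the 5, and for 23.7% of all tested genes. Within libraries of low rRNA share, which leave CD24low replicate 2 out, the medians were 0.02 and 0.12, and within those of high share 0.24 and -0.22.

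**Figure D3:**
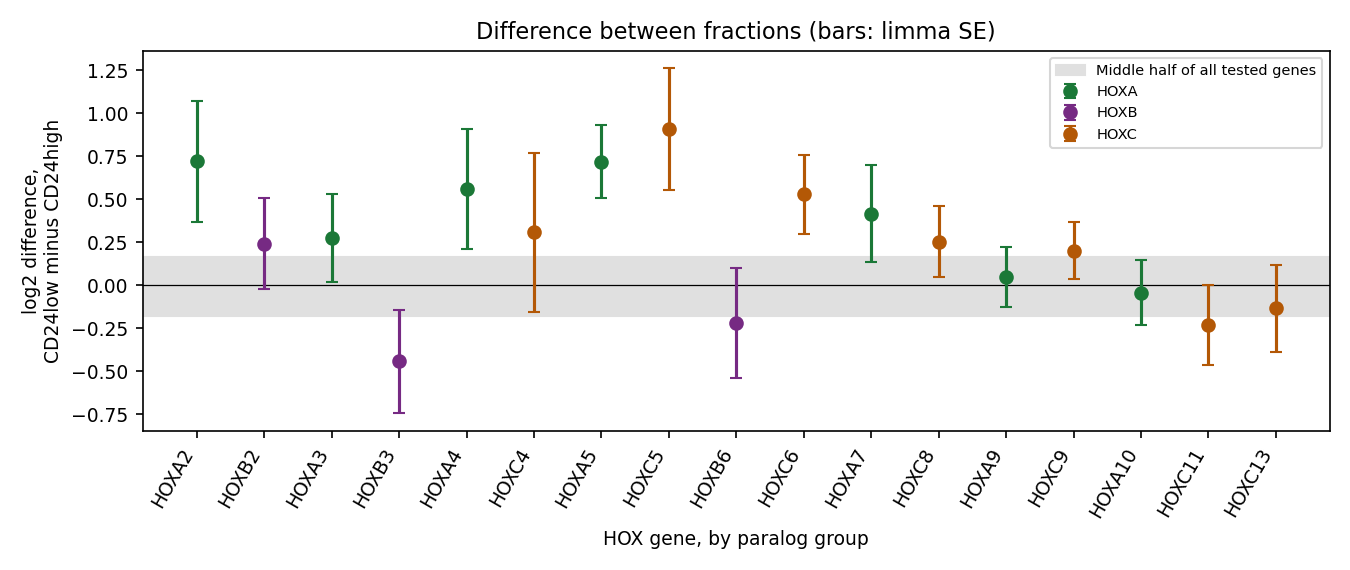
Log2 differences (CD24low minus CD24high, vertical axis) of 17 of the 18 tested HOX genes in order of paralog group, coloured by cluster, with limma's SE as bars. The grey band runs from the lower to the upper quartile of all tested genes, from -0.18 to 0.17. Differences of groups 9 to 13, at the right, run from -0.23 to 0.20.

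Long noncoding RNAs of the clusters were expressed in HOXA, HOXB and HOXC. Of 18 found in the table, 7 reached a mean of 10 normalized counts, and another 7 had no reads. The 7 silent ones included HOTTIP and HOXA11-AS at the silent end of HOXA, HAGLR, HAGLROS and HOXD-AS2 in HOXD, and also HOXB-AS4 and HOXC-AS3. HOTAIRM1, a HOXA transcript of myeloid cells, had 80.1 and 91.6 normalized counts on average in CD24high and CD24low cells. HOTAIR, a HOXC transcript known for its link to Polycomb and breast cancer spread, had 16.6, 15.8 and 29.2 in CD24high and 11.5, 22.0 and 10.8 in CD24low libraries. Its fractions overlapped (-0.47, SE 0.39, limma adjusted p = 0.64).

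Among the 7, none passed limma's test or DESeq2's, and none had an unadjusted p below 0.05. HOXA-AS2, opposite HOXA3 and HOXA4, had 18.3, 16.8 and 29.2 normalized counts in CD24high and 30.8, 38.2 and 29.4 in CD24low libraries. Its fractions did not overlap, by a margin of under 1 count (0.62, SE 0.30, limma adjusted p = 0.40). HOXA10-AS had 55.6, 43.5 and 48.2, and then 28.2, 21.0 and 50.0, so CD24low replicates 1 and 2 were low and replicate 3 was not (-0.64, SE 0.32, limma adjusted p = 0.42). The low pair are the CD24low libraries of high rRNA share, and the difference was 0.022 among libraries with little rRNA and -0.96 among the others. HOXA-AS3 had 23.4 and 20.6 in the replicates numbered 3 of the 2 fractions and 1.98 to 8.81 in the others. HOXC13-AS (difference 0.08) and HOXB-AS1 (0.32) overlapped between fractions too. The library kit marks strand, but the strand setting of the counting is not given in the sources used here, so antisense pairs are uncertain.

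**Figure D4:**
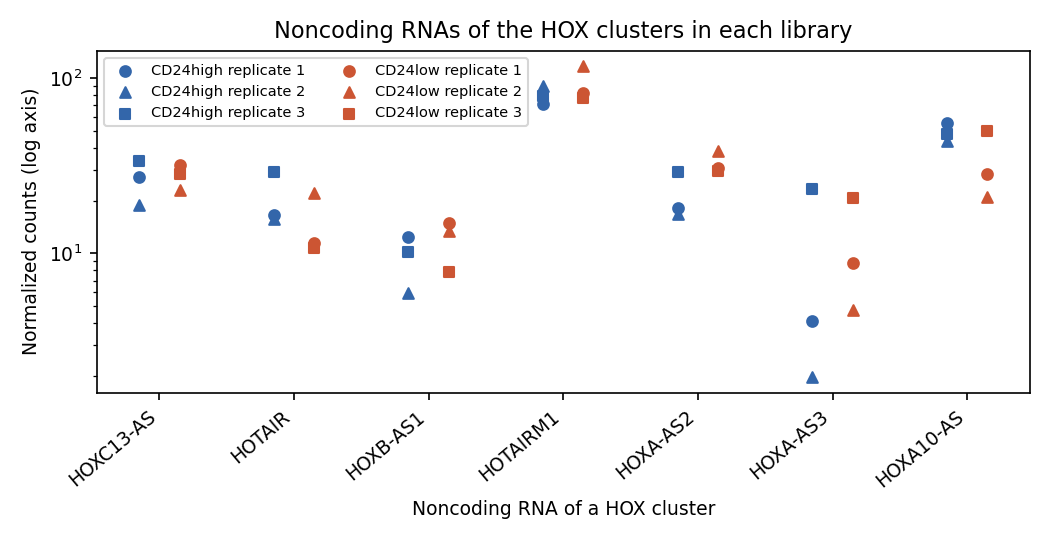
Normalized counts (log axis) of the 7 noncoding RNAs of the HOX clusters with a mean of at least 10, in each library; colours and symbols mark fraction and replicate number. HOXA10-AS is low in CD24low replicates 1 and 2, and HOXA-AS3 is high in both replicates numbered 3.

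The clusters also hold microRNA genes, whose mature products are known to act on HOX mRNAs. They are shown, with the seed (bases 2 to 8) in capitals, because members of one family sit in 3 of the clusters. The sequences are from RefSeq (GRCh38.p14).
hsa-miR-196a-5p: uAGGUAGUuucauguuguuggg
hsa-miR-196b-5p: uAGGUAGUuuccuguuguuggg
hsa-miR-10a-5p: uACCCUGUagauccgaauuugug

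The first is made from MIR196A1 in HOXB and MIR196A2 in HOXC, and the second from MIR196B in HOXA. They share the seed AGGUAGU and differ by A12C, counted from the 5′ end with the miR-196a base first; miR-10a, from HOXB, has the seed ACCCUGU. Of 6 such genes looked up, 5 had no reads and MIR196B had at most 0.988 normalized counts in a library. No small-RNA libraries were analysed, so mature microRNAs were not measured.

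Among protein-coding genes within 200 kb of the clusters, widely expressed ones flanked all 4, the silent HOXD cluster included. Of 17 such genes, 10 were tested and 6 had no reads, among them the homeobox genes EVX1 and EVX2 beyond the group 13 ends of HOXA and HOXD and PRAC1 and PRAC2 beside HOXB13. The 8 tested neighbours that overlap no HOX gene had means from 263 to 4632 normalized counts. Next to the silent HOXD cluster MTX2 and LNPK had 621 and 777. Differences of the 8 ran from -0.27 for LNPK to 0.26 for CALCOCO2, with a smallest limma adjusted p of 0.43 for ATP5MC1. The others were SKAP2 beside HOXA (0.08), UBE2Z beside HOXB (0.08), and SMUG1 (-0.13) and CBX5 (0.01) beside HOXC. The remaining pair of tested genes are unnamed annotations that overlap HOXA9 with HOXA10, and HOXC10 with HOXC5; they differed by -0.0037 (AC004080.3) and 0.74 (AC012531.2).

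The list of TALE cofactors held 10 genes, among them PBXIP1, which is not of the PBX, MEIS or PKNOX families. Of these 9 were tested, and 0 passed limma's test. PKNOX2 had 3 reads over all libraries. With DESeq2, 1 was called, and higher in CD24low cells, against calls in either direction for 2.51% of all tested genes. MEIS3, a TALE cofactor, had 17.4, 28.6 and 23.4 normalized counts in CD24high and 42.3, 116 and 45.1 in CD24low libraries. All CD24low libraries lay above all CD24high ones, and the difference was 1.38 (SE 0.39, limma adjusted p = 0.20, DESeq2 adjusted p = 0.042). Of the 9 tested, CD24low libraries lay wholly above in 1 and wholly below in 0, against 10.2% and 9.32% of all tested genes. PBXIP1, from the same list, differed by 0.80 (SE 0.45, limma adjusted p = 0.47) and overlapped between fractions, with 356 normalized counts in CD24low replicate 2 and 64.7 to 104 in the other libraries. It differed by 0.15 among libraries with little rRNA and by 1.04 among the others. The median of the 9 was 0.17.

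Retinoic acid genes, which set HOX expression in the embryo, gave 0 calls of 10 tested with limma and 1 higher with DESeq2. DESeq2 called 2.51% of all tested genes in either direction. CYP26B1, an enzyme that breaks retinoic acid down, had 74.7, 53.3 and 61.4 normalized counts in CD24high and 156, 272 and 99.9 in CD24low libraries, with no overlap (1.36, SE 0.33, limma adjusted p = 0.15, DESeq2 adjusted p = 0.0028). ALDH1A3, an enzyme that makes it, had 2690 and 1581 normalized counts on average, with overlap between fractions (-0.88, SE 0.34, limma adjusted p = 0.30). Its difference was 0.13 among libraries with little rRNA and -1.65 among the others. The receptor gene RARB, itself a target of the pathway, had no reads, and the list's median was 0.03. Of the 10 tested, CD24low libraries lay wholly above in 2 and wholly below in 1, against 10.2% and 9.32% of all tested genes.

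All 27 Polycomb genes examined were tested and 0 passed limma's or DESeq2's test, with a median of 0.06. PHC2 (2366 and 3104 normalized counts on average, 0.39, SE 0.10) and PHF19 (1357 and 1854, 0.44, SE 0.15) had the smallest p-values, with limma adjusted p of 0.17 and 0.25 and no overlap between fractions. Of the 27, CD24low libraries lay wholly above in 5 and wholly below in 2, against 10.2% and 9.32% of all tested genes. The Trithorax list of 17 genes also held genes outside that group, such as CTCF and the H3K27 demethylases. Of the 17, 0 passed either test (median -0.03). MLLT3, a partner of the elongation complexes that act on HOX genes, had 43.2 and 95.7 normalized counts on average (0.95, SE 0.38, limma adjusted p = 0.33). Its CD24low libraries had 66.1, 168 and 52.9. MLLT3 differed by 0.26 among libraries with little rRNA and by 1.35 among the others. MEN1, which encodes menin, had 382 and 477 (0.31, SE 0.14, limma adjusted p = 0.36). At an unadjusted limma p below 0.05 there were 5 of 27 Polycomb genes and 2 of the 17 genes of the Trithorax list, MLLT3 and MEN1, against 13.5% of all tested genes.

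Homeobox genes outside the clusters gave 0 calls of 15 tested with limma and 1 higher with DESeq2, out of 39 examined, of which 15 had no reads. The share that DESeq2 called over all tested genes was 2.51%. SIX2, a renal progenitor gene, had 8.47 and 33.4 normalized counts on average (1.98, SE 0.50, limma adjusted p = 0.16, DESeq2 adjusted p = 0.043), and IRX3 250.4 and 413 (0.69, SE 0.20, limma adjusted p = 0.20). In both genes the fractions did not overlap. Of the 15 tested, CD24low libraries lay wholly above in 3 and wholly below in 0, against 10.2% and 9.32% of all tested genes. The median difference of the 15 was 0.08, and that of the 18 HOX genes 0.25.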

How the data were processed

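RNA-seq libraries of sorted MCF10AT1 cells, 3 CD24low and 3 CD24high, were compared; groups and replicate numbers are from the sample titles. The deposited signal values are normalized counts per gene, that is gene counts scaled per library. The submitters' processing notes name DESeq2, STAR 2.5.2, R 3.5.0 and hg38. Which read counter, strand setting and annotation release were used is not given in the sources used here. Every value of a library is a whole multiple of its smallest step, so that division by this step gave back whole reads (100% of values within 0.1 reads). Of 58381 IDs, 58261 matched GENCODE 29 without their version; symbols, exon lengths and coordinates are from it.

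The main test was limma 3.58.1 on log2 (normalized count + 1), with its trend option, two-sided and with group as the only term, over the 16047 genes whose mean reached 10, with Benjamini-Hochberg adjustment over all of them. Run on these reads for those genes, DESeq2 1.42.0 called 402 and edgeR 4.0.16 called 0. Scripts ran in R 4.3.3 and Python 3.11.15 (matplotlib 3.10.9, numpy 2.4.6, pandas 2.3.3), and the fits were tested on simulated data. Of the 39 HOX genes, 18 passed the filter; 1 of them is counted in the totals and is not reported here. Floors for a count of 0 are 3 reads per library; without molecular identifiers these floors hold for counting error only. Depth was lowest in CD24high replicate 3, where 1 read is worth 1.46 normalized counts.

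The HOX genes and the lists of cofactors, regulators, other homeobox genes and cell markers were chosen with earlier results of these data known. The rule for named genes took all HOX genes, cluster noncoding RNAs with a mean of at least 10, the 2 tested members with the smallest p of each other list (up to 3 where any passed), and tested neighbours within 200 kb. Other genes named, such as silent ones, were chosen after their values were seen. Of the immune and endothelial markers PTPRC had at most 1.98 normalized counts and CD3E had none; CD68 and PECAM1 differed by 0.54 and 0.31 on the log2 scale and were not called. Alternatives were other pseudocounts, filters, scalings, tools, thresholds for on, a replicate block, the rRNA split and each library left out.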

Additional observations from a re-analysis of the deposited data

How the results depend on the processing

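No HOX gene was called under any of the settings with a test, which were pseudocounts of 0.5 and 5, no filter, a mean of at least 50, no trend, total scaling, the rRNA split as a covariate, the replicate block, DESeq2, edgeR and each library left out. The count over all genes, 0 in the main test, was 164 with no filter, 402 with DESeq2, 716 with the replicate block and 0 to 366 with 1 library left out, the highest without CD24low replicate 3; the cause was not tested. The median HOX difference of 0.25 was 0.11 with the rRNA split as a covariate, 0.10 within libraries of low rRNA share and 0.10 to 0.35 with 1 library left out, lowest without CD24high replicate 2. The number of HOX genes on in all 6 libraries, 17, was 7 with at least 50 normalized counts, 10 with at least 10 per kilobase and 17 to 18 with 1 library left out. Of 18 tested HOX genes 10 kept their direction under every setting that held them. Within libraries of low rRNA share the sign turned for HOXA7 (-0.14), HOXA9 (-0.10), HOXA10 (0.087), HOXC4 (-0.19), HOXC11 (0.12) and HOXC13 (0.48), and within those of high share for HOXA3 (-0.12) and HOXB6 (0.24). With 1 library left out it turned for HOXA9 (-0.046 to 0.11), HOXA10 (-0.20 to 0.040), HOXC4 (-0.19 to 0.67) and HOXC13 (-0.34 to 0.10). Same-numbered libraries of the 2 fractions had correlations of 0.27, 0.30 and 0.05 between their deviations from the group means over 16047 genes, and with 1 pair under 0.1 the numbers were not taken to pair samples, although 5 of 6 libraries correlated best with their own number. With the replicate block HOXA5 had a limma adjusted p of 0.052. Low counts in the shallowest library limit genes near 10 normalized counts most.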
